A study of Mus musculus with 4 samples.

Results

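CD8+ PD-1+ CD44+ T cells from the tumor-draining lymph nodes (TdLN) of mice given radiotherapy alone were set against cells sorted from untreated mice. According to the paper, naive CD8+ CD44- CD62L+ cells of untreated nodes were sorted as well and pooled as controls. Whether the untreated library holds any of them is not stated. All cells of these libraries, 1 for each treatment, were used when they had 500 to 5000 detected genes, at most 40000 UMIs, under 10% mitochondrial UMIs and 1 clear hashtag. Barcodes with at least 2 UMIs of Trdc, at least 2 of Cd79a or at least 3 of H2-Aa and H2-Ab1 together were dropped. This left 8954 RT cells and 8988 untreated cells, 17942 of the 38317 cells of the series and of the 22412 barcodes deposited for both libraries.

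The mice were female C57BL/6 animals carrying B16F10GP, a B16F10 melanoma line that expresses the LCMV glycoprotein as a model antigen, on both flanks. In the RT group the first tumor was irradiated, and nodes were taken on day 7 after treatment; the labels give neither dose nor fractions for these mice. Each library pooled 5 mice, told apart by hashtag antibodies, so the mouse was the replicate but treatment and library cannot be told apart. The other groups, αPD-L1 and RT + αPD-L1, were also 1 library of 5 mice each and entered here to estimate the spread and as side-by-side values.

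The TdLN holds antigen-experienced CD8+ T cells, and those that keep TCF-1, the product of Tcf7, can renew themselves and supply effector cells to the tumor. Irradiated cells are known to switch on p53 targets, and irradiated tumors can release DNA that leads to type I interferon and to interferon-stimulated genes. Replication-dependent histone genes are switched on in S phase, when new DNA is packed, and most of their mRNAs end in a stem-loop in place of a poly(A) tail, so that poly(A) capture sees only a part of them.

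Per mouse there were 639 to 3186 untreated cells and 144 to 3198 RT cells, with 1214128 UMIs in RT mouse 4 and 28909606 in untreated mouse 2 as the extremes. Median UMIs per cell were 6731 ± 541 in untreated mice and 6691 ± 171 in RT mice (SD, n = 5 mice each; exact permutation test, two-sided, p = 0.865). The sort markers were present in all 10 mice when the cells of a mouse were summed, and Cd44 and Pdcd1 differed between the clusters given below. Cd8a stood at 739 ± 67.7 CPM untreated and 718 ± 20.6 CPM in RT, Cd44 at 68.9 ± 10.3 and 65.4 ± 3.65 CPM, and Pdcd1 at 25.9 ± 4.71 and 22.9 ± 5.72 CPM. Of the melanoma markers, Tyrp1 and Tyr had no UMI, and all 6 summed to 1.28 to 2.43 CPM in untreated and 0 to 2.26 CPM in RT mice. The 8 gamma delta T cell markers summed to 22.4 to 41.1 CPM in untreated and 28.9 to 79.3 CPM in RT mice, and 6 B cell markers to 198 to 213 and 212 to 232 CPM; none of these markers was called. Hemoglobin transcripts reached 159 CPM in untreated mouse 1 and at most 0.457 CPM in the other 9 mice. There were 115 cell barcodes found among the cells of both libraries.

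RT and untreated mice differed in 13 of 12051 genes (0.108%), 4 higher and 9 lower in RT, at an adjusted p under 0.05 in edgeR's quasi-likelihood test over counts summed per mouse. The differences were small, between 0.14 and 0.47 on the log2 scale in absolute size. The genes that fell in RT were the histone H4 genes Hist1h4d, Hist1h4h and Hist1h4c, the ribosomal RNA-like transcripts Gm42418 and AY036118, the mitochondrial leucyl-tRNA synthetase Lars2, the ubiquitin-related Gm8797, the G protein subunit Gna13 and the phosphatidylinositol transfer protein gene Pitpnm1. Dynll1, Sarnp, Ddx5 and the noncoding RNA Gm47882 rose. For all 13 the values of the 5 RT mice and the 5 untreated mice did not overlap, as for 387 of the 12051 genes tested. The calls were made from the same values, so this is no separate support. Of 5730 genes with at least 20 CPM on average, 0 differed by more than 1 on the log2 scale. With DESeq2 34 genes were called (0.282%), with limma-trend 12 (0.0996%), and with HTODemux as the hashtag caller 8 (0.0701%). Leaving out each mouse in turn gave 7 (without RT mouse 3) to 27 genes (without RT mouse 5), and without RT mouse 4, the mouse with 144 cells, there were 10. Without untreated mouse 4 there were 8.

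**Figure D1:**
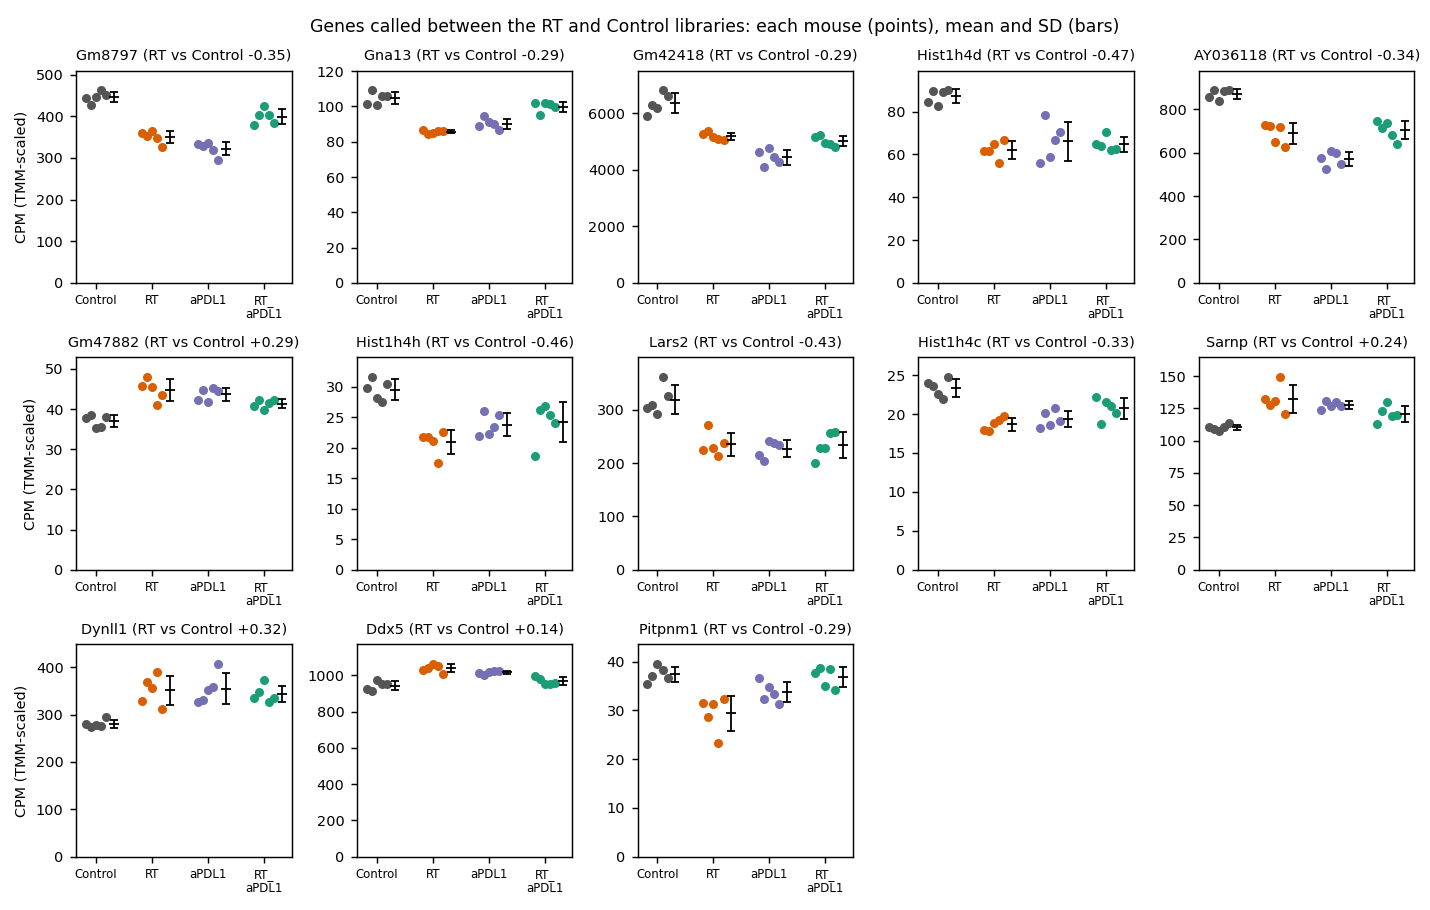
Level of each of the 13 called genes (y axis, CPM after TMM scaling, starting at 0) in each mouse of the 4 libraries (x axis), with the mean and SD of 5 mice beside the points. In every panel the RT points lie wholly above or wholly below the untreated points; for Gna13 the RT mice lie between 84.3 and 86.5 CPM and the untreated mice between 101 and 109 CPM.

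The clearest family was the replication-dependent histones, of which 3 of 56 tested fell (5.36%, against 0.108% of all genes) and none rose. The list's median was -0.32 on the log2 scale, against -0.00 for all genes, and 53 of its 56 members had a negative value. The 3 called genes encode histone H4, which pairs with H3 in the core of the nucleosome, and all lie in the large histone cluster of chromosome 13 (mm10). Hist1h4d is at chr13:23581598-23582735 on the plus strand, Hist1h4h at chr13:23531050-23531519 on the plus strand and Hist1h4c at chr13:23697635-23698454 on the minus strand, and GENCODE vM21 places no other gene over them. Copies of H4 are alike: 14.7% of the 31-base words of Hist1h4d transcripts, 50% of those of Hist1h4h and 22.2% of those of Hist1h4c occur in transcripts of other genes, so how reads were split between copies is uncertain. The 250 bases before the RefSeq start of each (GRCm38.p6, 5′ to 3′ on the gene's strand) are shown because the 3 genes moved together; capitals mark the TATA box letters TATAAA, the CCAAT box letters and GGTCCG, the core of the H4 subtype element bound by HINFP, each searched on both strands.
Hist1h4d, chr13:23581318-23581567, plus strand: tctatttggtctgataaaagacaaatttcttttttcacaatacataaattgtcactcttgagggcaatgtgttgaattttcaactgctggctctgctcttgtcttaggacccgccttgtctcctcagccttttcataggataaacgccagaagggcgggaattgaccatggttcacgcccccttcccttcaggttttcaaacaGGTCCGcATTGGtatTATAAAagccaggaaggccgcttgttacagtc
Hist1h4h, chr13:23530794-23531043, plus strand: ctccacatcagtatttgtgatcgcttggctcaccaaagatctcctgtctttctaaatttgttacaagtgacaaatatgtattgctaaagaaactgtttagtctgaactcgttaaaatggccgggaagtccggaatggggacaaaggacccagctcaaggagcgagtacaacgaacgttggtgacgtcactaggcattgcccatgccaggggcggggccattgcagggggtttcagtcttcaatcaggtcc
Hist1h4c, chr13:23698459-23698708, minus strand: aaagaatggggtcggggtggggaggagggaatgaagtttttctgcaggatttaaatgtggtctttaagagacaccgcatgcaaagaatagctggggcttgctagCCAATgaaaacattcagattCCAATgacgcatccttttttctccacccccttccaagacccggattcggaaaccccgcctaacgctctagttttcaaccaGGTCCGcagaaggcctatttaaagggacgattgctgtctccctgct
GGTCCG was present for Hist1h4d and Hist1h4c, 47 and 46 bases before the start, and in 8 of the 11 H4 promoters of the table, against 6.72% of 32817 promoters of all genes. TATAAA, found for Hist1h4d 32 bases before the start, was held by 12.4% of all promoters and CCAAT by 33.8%. In Hist1h4d the reverse complement of CCAAT lies 40 bases before the start, between the GGTCCG and the TATAAA. For Hist1h4h none of these letter strings lay whole in the window. That window ends in ggtcc, which is GGTCCG without its last letter, so the string may be cut by the edge. The RefSeq start used for it, 23531044, lies before the GENCODE start, 23531050.

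Hist1h4d had 84.7, 89.5, 82.8, 89.3 and 90.1 CPM in the 5 untreated mice and 61.6, 61.6, 64.9, 55.9 and 66.6 CPM in the 5 RT mice. Every RT mouse was lower than every untreated mouse. The difference was -0.47 ± 0.07 on the log2 scale (SE; adjusted p = 0.00247). Hist1h4h had 29.8, 31.6, 28.2, 27.5 and 30.4 CPM untreated and 21.7, 21.8, 21.1, 17.5 and 22.5 CPM in RT, a difference of -0.46 ± 0.07 (adjusted p = 0.0031). Hist1h4c had 23.9, 23.7, 22.5, 21.9 and 24.8 CPM untreated and 17.9, 17.8, 18.8, 19.2 and 19.8 CPM in RT, a difference of -0.33 ± 0.06 (adjusted p = 0.00997). Neither gene's groups overlapped. With HTODemux as the hashtag caller, which kept 448 cells of untreated mouse 1 and 108 of RT mouse 1, the differences were -0.42 for Hist1h4d, -0.38 for Hist1h4h and -0.29 for Hist1h4c, with adjusted p of 0.172, 0.0736 and 0.288. Hist1h4c was also not called without RT mouse 2 (adjusted p = 0.0862) or RT mouse 3 (0.056).

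All 13 H4 genes tested had a negative value, with a median of -0.41, but they were not alike. Hist1h4i stood at 27.5 ± 3.30 CPM untreated and 27.2 ± 2.998 CPM in RT, a difference of -0.03 ± 0.12. In the other families, 5 of 5 linker histone H1 genes, 13 of 14 H2A genes, 13 of 14 H2B genes and 9 of 10 H3 genes had negative values, with medians of -0.24, -0.27, -0.32 and -0.31, and none was called in the fit of all 20 mice. Hist1h1e, a linker histone gene, had 191, 220, 175, 206 and 190.4 CPM in untreated mice and 149, 154, 144, 123 and 163 CPM in RT mice; its groups did not overlap, with a difference of -0.40 and an adjusted p of 0.0982. The summed level of the list nevertheless overlapped, at 1708 to 2108 CPM in untreated and 1409 to 1947 CPM in RT mice. RT mouse 5 was the highest RT mouse, and without it 27 genes were called.

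More histone genes were called when the cycling cells were left out, though not more of H4. When the cells of the cycling cluster were left out, 34 of 11780 genes were called (0.289%), 9 higher and 25 lower, and 15 of the histone genes fell: 3 encoding H1, 5 H2A, 1 H2B, 3 H3 and 3 H4. The list's median was then -0.46, while that of the H4 genes was -0.40, against -0.41 with all cells. The 3 called H4 genes had lower values without the cycling cells than with all cells. Hist1h4d stood at -0.68 against -0.47, Hist1h4h at -0.55 against -0.46 and Hist1h4c at -0.40 against -0.33. Hist1h2ab fell by 0.72, Hist1h3c by 0.67 and Hist1h1b by 0.55 on the log2 scale in that fit. The 30 S phase genes outside the histones, which include the helicase subunits of replication forks, had a median of -0.05 with all cells and -0.16 without the cycling cells, with none called in either fit. Of the 34 G2/M genes none was called with all cells, at a median of -0.14; without the cycling cells the median was -0.30 and Top2a, a DNA topoisomerase of dividing cells, fell by 0.38. The part of this in the histone values was not tested. Pcna stood at 121 ± 2.48 CPM untreated and 120.3 ± 6.21 CPM in RT.

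Of 8 nuclear-retained and ribosomal RNA-like transcripts tested, Gm42418, AY036118 and Lars2 fell (37.5%, against 0.108% of all genes), in a list that was drawn up with earlier results of these data known. The list as a whole was split, with 4 positive and 4 negative values and a median of -0.09, and the nuclear RNAs Neat1 (0.12 ± 0.06) and Malat1 (0.11 ± 0.05) were not called. Gm42418 and AY036118 overlap each other on opposite strands of chromosome 17 (chr17:39846958-39848788, plus, and chr17:39847113-39848035, minus), inside a copy of the ribosomal RNA repeat, and their reads cannot be assigned with certainty. Gm42418 had 5889, 6286, 6199, 6826 and 6599 CPM untreated and 5262, 5366, 5174, 5079.7 and 5037 CPM in RT. This most abundant of the called transcripts was lower in every RT mouse, by -0.29 ± 0.04 on the log2 scale (adjusted p = 0.00247). AY036118 had 858, 889, 836, 883 and 889 CPM untreated and 728, 722, 647, 721 and 627 CPM in RT, a difference of -0.34 ± 0.05 (adjusted p = 0.00247; with HTODemux -0.30, adjusted p = 0.406). Lars2, which was put in the same list, charges mitochondrial tRNA with leucine. It had 304, 309, 292, 362 and 325 CPM untreated and 224, 272, 228, 213 and 237 CPM in RT, a difference of -0.43 ± 0.07 (adjusted p = 0.00997). Lars2 was not called with HTODemux (adjusted p = 0.0629), without untreated mouse 4 (0.0524) or without RT mouse 3 (0.0656). The other 16 mitochondrial aminoacyl-tRNA synthetases were not called, and the list's median was -0.03. The 13 mitochondrially encoded genes had a median of -0.03 with none called.

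Gm8797 (chr3:5750806-5751295) gave the smallest adjusted p together with Gna13. It had 444, 427, 447, 463 and 450 CPM in untreated mice and 359, 354, 364, 348 and 326 CPM in RT mice, a difference of -0.35 ± 0.04 (adjusted p = 0.000184). No RT mouse reached an untreated one. In its transcript, 93% of the 31-base words also occur in another gene model, so its identity as the source of these reads is uncertain. The polyubiquitin gene Ubb had 2201 ± 42.5 CPM untreated and 2188 ± 94.5 CPM in RT (-0.01 ± 0.04).

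Gna13 encodes the α subunit of G13, which carries signals of sphingosine-1-phosphate and other receptors and restrains lymphocyte movement. The gene lies at chr11:109362831-109401369 on the plus strand. The 5 untreated mice had 101, 109, 101, 106 and 106 CPM, and the 5 RT mice had 86.5, 84.3, 85.1, 86.0 and 86.2 CPM. The groups were far apart relative to their spread, at -0.29 ± 0.03 on the log2 scale (adjusted p = 0.000184), and the call held with each mouse left out in turn. It was the 1 called gene of 19 lymph node homing and egress genes, whose median was -0.04. The egress receptor S1pr1 stood at 84.0 ± 7.66 and 81.5 ± 11.8 CPM and its regulator Klf2 at 449 ± 57.4 and 429 ± 33.9 CPM. Arhgef1, an exchange factor that acts downstream of Gna13, had 431 ± 17.0 CPM untreated and 394 ± 13.5 CPM in RT without overlap (-0.13 ± 0.04, adjusted p = 0.309), and Gna12, the partner of Gna13, had 18.0 ± 2.11 and 17.9 ± 1.33 CPM.

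Of the 4 genes that rose, 3 encode proteins. Dynll1, a light chain of the dynein motor that also binds DNA repair proteins, had 280.2, 274, 277, 276 and 295 CPM untreated and 329, 368, 357, 389.9 and 312 CPM in RT. Each RT mouse was higher, by 0.32 ± 0.06 on the log2 scale (adjusted p = 0.025), but the call was lost when any of 7 mice was left out (adjusted p of 0.0667 to 0.107). The other 19 genes of the dynein list were not called. Sarnp, a subunit of the TREX complex that exports mRNA, had 111, 109, 108, 111 and 113 CPM untreated and 132, 128, 131, 149 and 121 CPM in RT (0.24 ± 0.04, adjusted p = 0.0202; with HTODemux 0.123), and it was called with 5 of the 10 mice left out in turn. No RT mouse fell among the untreated mice. Ddx5, an RNA helicase of splicing, had 925, 914, 974, 951 and 952 CPM untreated and 1027, 1043, 1064, 1050.3 and 1008 CPM in RT (0.14 ± 0.03, adjusted p = 0.0439), and it was called with 2 of the 10 mice left out in turn. Its relative Ddx17 had 57.1 ± 1.94 and 63.0 ± 6.86 CPM (adjusted p = 0.261). The noncoding RNA Gm47882 (chr13:13862534-13893979) had 37.9, 38.5, 35.4, 35.7 and 38.0 CPM untreated and 45.9, 48.1, 45.6, 40.9 and 43.6 CPM in RT (0.29 ± 0.04, adjusted p = 0.0027). Pitpnm1, the remaining gene that fell, had 35.5, 37.1, 39.6, 38.3 and 36.6 CPM untreated and 31.5, 28.6, 31.3, 23.4 and 32.3 CPM in RT (-0.29 ± 0.06, adjusted p = 0.0465), and it stayed called only when RT mouse 5 was the one left out.

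When only these 10 mice were fitted, so that the spread came from them alone, 44 of 11863 genes were called (0.371%), 20 higher and 24 lower, and 12 of the 13 genes above were among them (Ddx5 had an adjusted p of 0.0536). The common coefficient of variation was 0.0589 in that fit and 0.0894 with all 20 mice. The added genes included the IL-7 receptor α chain, a survival receptor of naive and memory T cells. Il7r had 103, 117, 115, 133 and 122 CPM untreated and 161, 182, 158, 212 and 136 CPM in RT, without overlap (0.49 ± 0.08 in the fit of 10 mice, adjusted p = 0.0218; 0.50 ± 0.14 in the fit of 20 mice, adjusted p = 0.223). Klrd1, the CD94 partner of NKG2 receptors, had 168, 174, 136, 173 and 156 CPM untreated and 204, 194, 193, 193 and 206 CPM in RT (0.30 ± 0.06, adjusted p = 0.0335; 0.195 with 20 mice). Chaperone genes Dnaja1 (0.22 ± 0.04, adjusted p = 0.0171) and Hsph1 (0.35 ± 0.06, adjusted p = 0.0279) rose in this fit, as did the transcription factor Creb1 (0.25 ± 0.04) and Cpt1a, which brings fatty acids into mitochondria (0.60 ± 0.12). Lower genes of this fit included the cold-inducible RNA-binding protein Cirbp (-0.49 ± 0.10, adjusted p = 0.0415), the kinase Pim1 (-0.29 ± 0.05) and Hist1h1e (-0.39 ± 0.06, adjusted p = 0.0144). None of these was called with all 20 mice.

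The lists linked to interferon, cytotoxicity and stemness held no called gene in the fit of 20 mice. None of 55 interferon-stimulated genes was called, and none reached an unadjusted p under 0.05, with a median of -0.03 and a summed level of 3573 to 5500 CPM in untreated and 3614 to 4705 CPM in RT mice. The fit of 10 mice called 0 of them as well, at a median of -0.02. None of 22 interferon-γ GTPases and regulators, 22 MHC class I genes and 6 Ly6 genes was called; Gbp8 had 25.2 ± 2.92 and 31.96 ± 1.33 CPM (0.35 ± 0.17, adjusted p = 0.504, and 0.0401 in the fit of 10 mice). Of 28 cytotoxic and effector genes 26 had a positive value and none was called, with a median of 0.20. Gzma had 8.89 ± 6.73 CPM untreated and 25.6 ± 26.2 CPM in RT, and its spread between RT mice was as large as its mean. Of 17 stem and memory genes none was called, with a median of 0.02, and of 24 inhibitory receptors and exhaustion regulators none, with a median of -0.07. The effector-like marker genes summed to 1088 to 1413 CPM in untreated and 1094 to 1879 CPM in RT mice. The 6 NK cell markers summed to 47.9 to 61.5 and 41.7 to 78.2 CPM, and their part in these values, like that of the gamma delta markers above, was not tested.

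Genes that irradiated cells are known to switch on were not called either. The beam was aimed at the flank tumor and the nodes were taken on day 7 after treatment. The labels give no dose for the node, so these T cells are not known to have been irradiated. Of 24 p53 targets none was called, with a median of 0.04; Cdkn1a, the p21 cell cycle inhibitor, had 1.51 ± 0.173 and 1.89 ± 0.648 CPM, Mdm2, which ends the p53 response, had 47.2 ± 2.71 and 47.3 ± 2.70 CPM, and Ccng1 had 72.8 ± 3.63 and 80.6 ± 6.96 CPM (0.14 ± 0.06, adjusted p = 0.455). The 25 DNA damage repair genes had a median of 0.01, with none called. Of 38 immediate early genes none was called, with a median of -0.07; Nfkbia, the NF-κB inhibitor, had 574 ± 45.2 and 506 ± 38.4 CPM (-0.19 ± 0.06, adjusted p = 0.249). Of 14 heat shock and chaperone genes 5 had a positive value at an unadjusted p under 0.05 and none was called. Glycolysis (17 genes, median -0.07), T cell receptor and CD3 (18, -0.01), chemokine receptor and adhesion (23, 0.04), common gamma chain (20, -0.01), IL-18, IL-12 and interferon receptor (14, 0.04), costimulatory (15, -0.05) and BCL2 family genes (16, 0.02) held no called member either. Of 18 TREX genes Sarnp alone was called, and the 4 hemoglobin genes were too low to be tested.

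**Figure D2:**
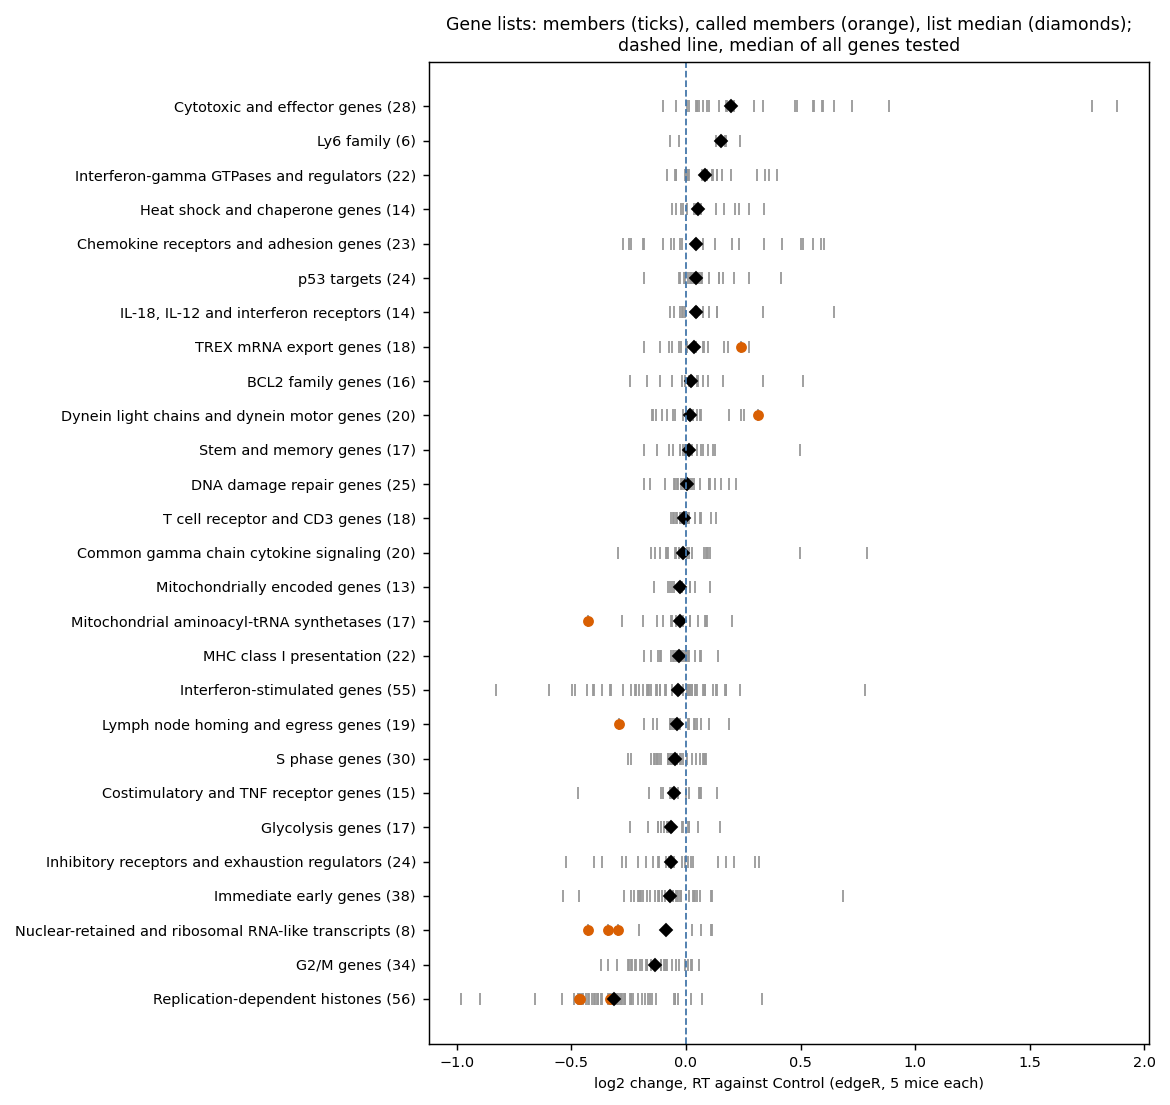
Log2 change between RT and untreated mice (x axis) of each tested member (ticks) of the gene lists (y axis, number tested in brackets), with called members in orange, list medians as diamonds and the median of all genes as a dashed line. The histone list lies furthest to the left, at a median of -0.32, and the cytotoxic list furthest to the right, at 0.20 with no called member.

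None of the 16 genes with which the study describes its T cell subsets was called in the fit of 20 mice. Tcf7 had 553 ± 24.2 CPM untreated and 542 ± 22.4 CPM in RT (-0.03 ± 0.05), Tox, the exhaustion regulator, 129.5 ± 7.66 and 128 ± 4.43 CPM (-0.00 ± 0.07), Btla 26.5 ± 1.76 and 26.6 ± 1.90 CPM (0.03 ± 0.06) and Dapl1 554 ± 44.9 and 567 ± 69.1 CPM (0.02 ± 0.11). For these genes the standard errors were small. Larger changes were not resolved, with wider standard errors, for the interferon genes Isg15 (-0.24 ± 0.51, at 66.7 ± 33.9 and 54.0 ± 17.7 CPM), Irf7 (-0.17 ± 0.34, at 72.6 ± 22.8 and 64.2 ± 9.11 CPM) and Ifitm3 (-0.83 ± 1.1, at 1.56 ± 1.13 and 1.31 ± 1.15 CPM). Ly6a, which encodes Sca-1, had 72.3 ± 25.3 and 73.1 ± 47.7 CPM (0.13 ± 0.49), and granzyme B (Gzmb) had 9.85 ± 4.85 and 16.8 ± 10.7 CPM (0.89 ± 0.89). Klrk1 (0.56 ± 0.36), Cxcr3 (-0.10 ± 0.16), Ctla4 (-0.21 ± 0.11), Ccrl2 (-0.28 ± 0.35) and Dusp1 (-0.12 ± 0.09) were likewise not called. The spread in this fit includes the RT + αPD-L1 mice, where Isg15 stood at 375 ± 336 CPM. Standard errors were smaller in the fit of 10 mice, with Isg15 at -0.24 ± 0.24, Irf7 -0.17 ± 0.15, Ifitm3 -0.83 ± 0.40 and Ly6a 0.16 ± 0.28. Gzmb (0.89 ± 0.33, adjusted p = 0.238) and Klrk1 (0.57 ± 0.20, adjusted p = 0.229) were not called in that fit either.

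**Figure D3:**
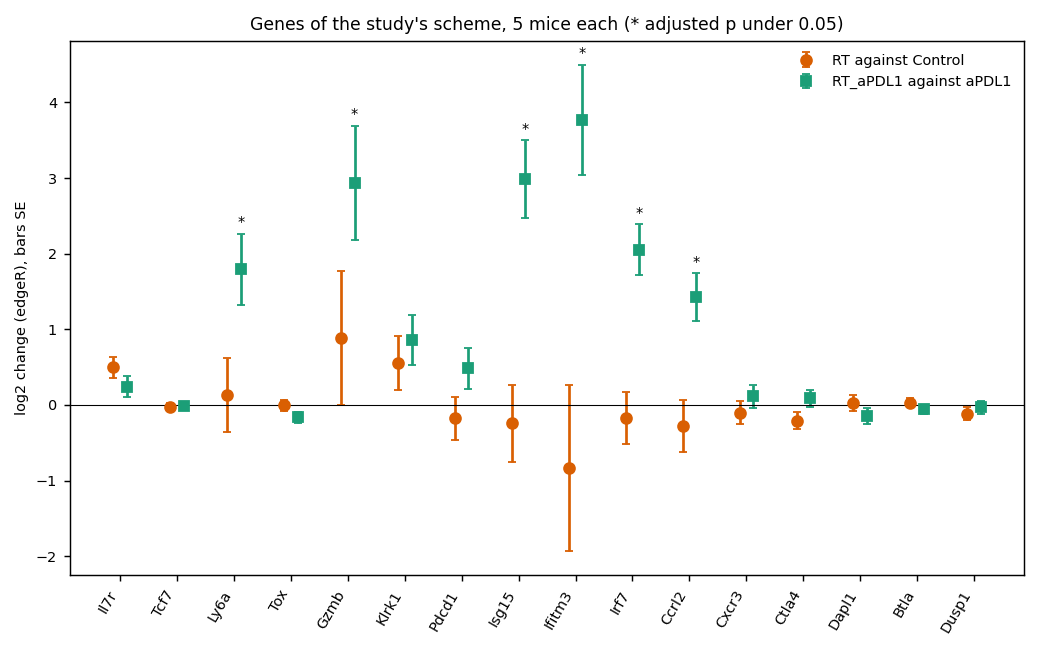
Log2 change with its SE (y axis) of 16 genes named by the study (x axis) for RT against untreated mice (circles) and for RT + αPD-L1 against αPD-L1 mice (squares), 5 mice a group. None of the circles is called; stars mark Ly6a, Gzmb, Isg15, Ifitm3, Irf7 and Ccrl2 in the mice given the antibody.

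Among genes with at least 20 CPM, the lowest values not already given belonged to the T cell receptor segment Trav12-2 (-0.64 ± 0.20), the transcription factor Zbtb32 (-0.56 ± 0.20), Nrn1 (-0.53 ± 0.20), Gm43305 (-0.52 ± 0.52), Trib1 (-0.49 ± 0.17) and Gm47283 (-0.47 ± 0.35), none called. The highest were the segments Trbv13-1 (0.56 ± 0.14), Trav7-5 (0.44 ± 0.19) and Trbv15 (0.36 ± 0.23), the chemokine Ccl5 (0.48 ± 0.24), Gzmk (0.48 ± 0.61), the chemokine receptor Cxcr6 (0.42 ± 0.15), Tgtp1 (0.40 ± 0.32) and Gm42047 (0.36 ± 0.28), none called. Levels of V segments give their use, and clones of T cells were not measured.

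Clustering of all 38317 cells gave 11 clusters, and no share was called between RT and untreated mice (exact permutation test, two-sided, adjusted over 11 clusters). The smallest p that 5 against 5 mice allow is 0.00794, so a single cluster, even with no overlap, could not pass after adjustment, and the shares are given as values. The naive-like cluster, led by Igfbp4, Ccr9 and Klf2, held 14.8% to 23.3% of untreated cells (median 15.9%) and 22.01% to 27.5% of RT cells (median 23.5%), a difference of 5.87 percentage points that overlapped in 2 untreated mice (exact permutation p = 0.0635, adjusted p = 0.349). Pooled over all libraries, its cells had low sort markers, with Pdcd1 at 4.0 CPM and Cd44 at 15.4 CPM. The effector-like cluster had 42.5 and 102 CPM of them. The cycling cluster, led by Birc5 and Pclaf, held 11.5% ± 1.06 of untreated and 10.1% ± 0.843 of RT cells (exact permutation p = 0.0556, adjusted p = 0.349). The chronically stimulated-like cluster (Tnfrsf4, Nrgn) held 11.2% to 26.6% and 10.0% to 15.7%, and the effector-like cluster 11.8% ± 1.98 and 11.8% ± 3.64 (SD, n = 5). The T_STEM-2-like cluster, led by interferon-stimulated genes, held 0.157% to 5.68% of untreated cells and 0.694% to 2.63% of RT cells. A cluster led by Sox4 and Myb held 22.1% ± 4.51 and 23.5% ± 4.14, and one led by Srm and Xcl1 held 9.34% ± 1.43 and 8.41% ± 0.692.

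**Figure D4:**
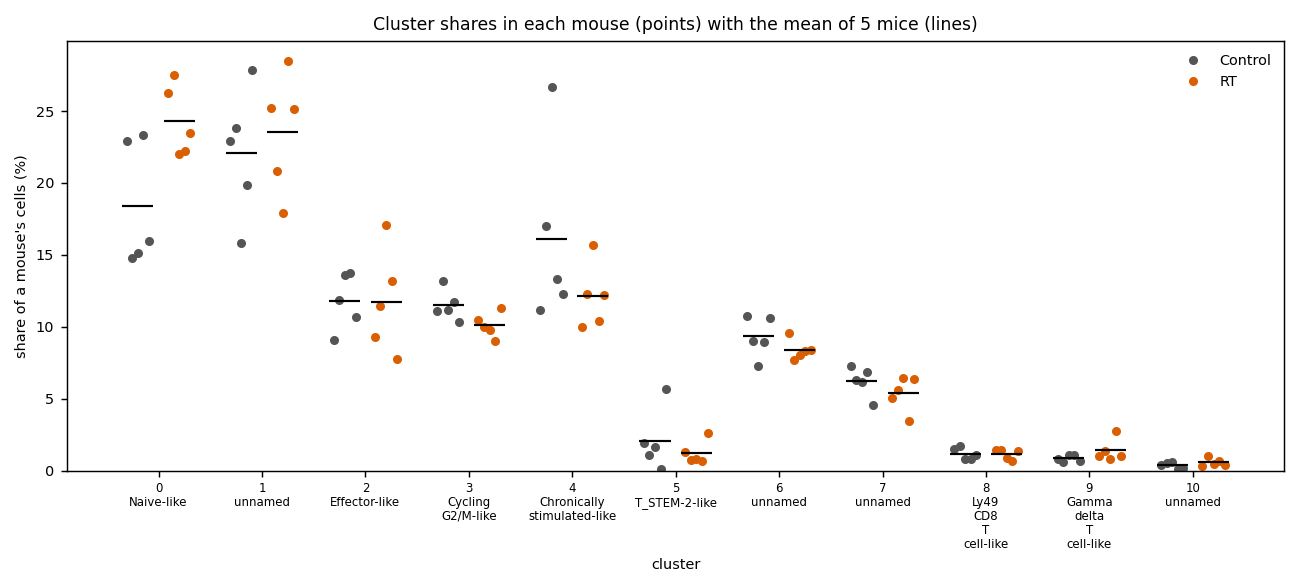
Share of each mouse's cells (y axis, percent) in each of the 11 clusters (x axis) for untreated (grey) and RT (orange) mice, with lines at the mean of 5 mice. The naive-like shares of 2 untreated mice, 22.9% and 23.3%, lie among those of the RT mice.

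Cells of 1 cluster were also compared between the mice, and 7 clusters had enough mice for a fit. The T_STEM-2-like cluster was not fitted, since only 3 untreated mice and 1 RT mouse had 30 cells in it. The Ly49 CD8 T cell-like, gamma delta T cell-like and Lyz2-led clusters were not fitted either. The naive-like cluster gave 65 of 8843 genes (0.735%), 15 higher and 50 lower, and DESeq2 called 4 higher and 18 lower there. The Sox4 and Myb cluster gave 27 of 9759 (0.277%), the effector-like cluster 9 of 8316 (0.108%), the cycling cluster 2 of 9846 (0.0203%), the chronically stimulated-like cluster 8 of 9144 (0.0875%) and the Srm and Xcl1 cluster 11 of 9015 (0.122%). In the low-UMI cluster led by Gm26917, edgeR and DESeq2 each called 0 of 5713 genes (0%), with 278 and 100 at an unadjusted p under 0.05. Gm8797 fell in 6 of the 7 clusters, by 0.32 to 0.39 on the log2 scale where called. Hist1h4d fell in the naive-like (-0.68 ± 0.10), Sox4 and Myb (-0.65 ± 0.08), chronically stimulated-like (-0.73) and Srm and Xcl1 (-0.84) clusters, and had -0.18 ± 0.06 in the cycling cluster, where its pooled level was 198 CPM untreated against 61.8 CPM in the naive-like cluster. Dynll1 rose in 4 clusters, by 0.33 to 0.42. Gna13 had a negative value in all 7 and was called in the naive-like cluster (-0.35), and Sarnp (0.29) was called there too.

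In the naive-like cluster 8 of 36 histone genes (22.2%) and 5 of 38 S phase and G2/M genes (13.2%) fell, with none of either higher. Top2a had pooled levels of 31.4 CPM untreated and 16.9 CPM in RT there (-0.90 ± 0.14, adjusted p = 0.000262), Mki67 had 18.3 and 10.6 CPM (-0.79 ± 0.18) and Pclaf 19.7 and 8.52 CPM (-1.20 ± 0.20). The same genes were far higher in the cycling cluster and not called in it: Top2a at 545 CPM untreated and 609 CPM in RT (0.18 ± 0.05), Mki67 at 515 and 533 CPM, and Pclaf at 745 and 810 CPM. Whether free RNA of cycling cells or cycling cells placed in that cluster take part in these values, here or in the Sox4 and Myb cluster, was not tested. Some genes of activated or antigen-experienced T cells, picked after their values were seen, were also lower in the naive-like cluster: Nrn1 (-1.41 ± 0.27), Anxa2 (-0.69 ± 0.12), Il2rb, the IL-2 receptor β chain (-0.34 ± 0.07), and Lgals1 (-0.25 ± 0.06). Cd5 (-0.32 ± 0.07) and Ifi27l2a (-0.40 ± 0.07), picked in the same way, were lower there too. Cxcr6 went the other way there (0.39 ± 0.08). Of 15 cytotoxic and effector genes 0 were called in that cluster, at a median of 0.006. Of 19 inhibitory receptor and exhaustion genes 2 fell there, with a median of -0.32. In the Sox4 and Myb cluster 8 of 41 histone genes (19.5%) fell, with Hist1h2ab at -0.75 ± 0.12 and Hist1h3f at -0.91, along with 2 of 50 S phase and G2/M genes, Top2a (-0.53 ± 0.12, adjusted p = 0.0391) and Mki67 (-0.60 ± 0.13, adjusted p = 0.0463), and in the cycling cluster none of 56 was called, at a median of -0.14.

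Further genes were called in 1 or more clusters. Cirbp fell in the naive-like (-0.48 ± 0.08), Sox4 and Myb (-0.53 ± 0.10), chronically stimulated-like (-0.61 ± 0.11) and Srm and Xcl1 (-0.62 ± 0.11) clusters, and Rbm3, also cold-inducible, fell in the naive-like cluster from 937 to 715 CPM (-0.39 ± 0.06, adjusted p = 0.000107). Of the chaperones, Hsp90b1 rose in the naive-like (0.31 ± 0.07), effector-like (0.44 ± 0.08) and Srm and Xcl1 (0.33 ± 0.06) clusters, Dnaja1 in the naive-like (0.28) and Srm and Xcl1 (0.34) clusters, and Hsph1 in the latter (0.41). Cxcr6 rose in the naive-like (0.39 ± 0.08) and Sox4 and Myb (0.32 ± 0.07) clusters. Klrd1 rose in the cycling cluster (0.45 ± 0.07, adjusted p = 0.0258). Pink1, a mitochondrial kinase, fell in the Sox4 and Myb cluster (-0.47 ± 0.08), Ppic in the effector-like cluster (-0.75 ± 0.13) and the Notch pathway gene Dtx1 in the Srm and Xcl1 cluster (-0.99 ± 0.17) and the naive-like cluster (-0.47 ± 0.09). The segment Trav6n-6 fell in the effector-like cluster (-2.63), where Trav8n-2 rose (2.49), as it did in the chronically stimulated-like cluster (1.57). Tcf7 was not called in any fitted cluster, with values of -0.14 to 0.08.

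**Figure D5:**
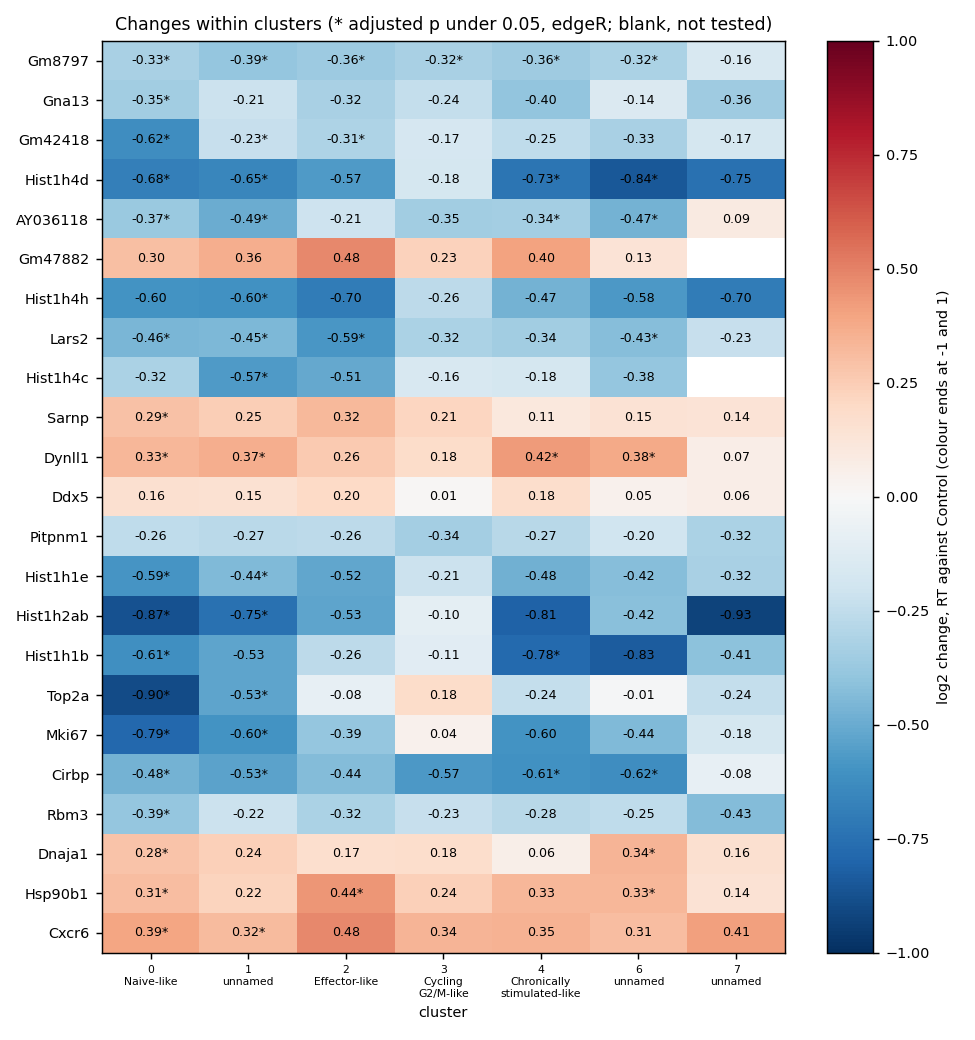
Log2 change between RT and untreated mice (colour and printed value) of the 13 called genes and 10 further genes (rows) in the 7 fitted clusters (columns), with stars at an adjusted p under 0.05. Gm8797 is starred in 6 columns, and the histone rows are palest in the cycling column, where Hist1h4d stands at -0.18.

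The same change was read in mice that also received the antibody, which share no mouse with the comparison above. RT + αPD-L1 against αPD-L1 gave 294 of 12051 genes (2.44%), and the change with RT differed between mice with and without antibody for 105 genes (0.871%), a count that ran from 19 (without RT mouse 2 or 3) to 239 (without RT + αPD-L1 mouse 1) with single mice left out and was 63 with HTODemux and 36 with limma. For 12 of the 13 genes the value with antibody had the opposite sign, and for 4 it was called: Gm8797 rose by 0.31 (322 ± 16.1 to 398 ± 18.1 CPM), AY036118 by 0.30 (571 ± 33.5 to 705 ± 43.7 CPM), Gm42418 by 0.17 (4441 ± 265 to 5012 ± 173 CPM) and Gna13 by 0.14 (90.3 ± 2.82 to 99.9 ± 2.85 CPM). Not called were Hist1h4h (0.06 ± 0.07), Lars2 (0.05 ± 0.07) and Dynll1 (-0.05 ± 0.06), each smaller than its SE. Hist1h4c (0.08 ± 0.06), Pitpnm1 (0.13 ± 0.06), Sarnp (-0.08 ± 0.04), Gm47882 (-0.08 ± 0.04) and Ddx5 (-0.07 ± 0.03) were not called either. Hist1h4d alone kept its sign, at -0.03 (66.1 ± 8.95 and 64.7 ± 3.45 CPM). The difference of the changes was called for all 13 genes, a contrast that includes the one by which they were chosen. The αPD-L1 mice, which had no RT, are set beside the RT mice here as levels, since a comparison of either with untreated mice uses the same untreated library. Gm8797 stood at 446 ± 13.1 CPM in untreated, 350.1 ± 14.5 in RT, 322 ± 16.1 in αPD-L1 and 399 ± 18.1 CPM in RT + αPD-L1 mice. In the same order Gna13 stood at 105 ± 3.52, 85.6 ± 0.928, 90.3 and 99.9 CPM, and Hist1h4d at 87.3 ± 3.31, 62.1 ± 4.08, 66.1 and 64.7 CPM. Both histone genes Hist1h4h (29.5, 20.9, 23.8 and 24.2 CPM) and Hist1h4c (23.4, 18.7, 19.4 and 20.7 CPM) were highest in the untreated library. Lars2 stood at 318 ± 27.1, 235 ± 22.5, 227 ± 15.9 and 234 ± 24.1 CPM and Pitpnm1 at 37.4, 29.4, 33.7 and 36.8 CPM. Gm42418 stood at 6360 ± 363, 5184 ± 134, 4441 and 5012 CPM and AY036118 at 871, 689, 571 and 705 CPM, so that these transcripts too were highest in the untreated library. The untreated library was the lowest for the genes that rose: Dynll1 stood at 280.5 ± 8.35, 351 ± 30.8, 355 ± 32.3 and 343 ± 17.6 CPM, Sarnp at 110.3, 132, 128 and 121 CPM, Ddx5 at 943, 1038, 1016 and 968 CPM and Gm47882 at 37.1, 44.8, 43.7 and 41.3 CPM. A difference of the untreated library from the others and an effect of RT cannot be told apart in these genes. Isg15 and Irf7, not called without antibody, rose with it by 2.99 and 2.05.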

How the data were processed

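Single-cell RNA was measured in CD8+ PD-1+ CD44+ T cells of 20 mice in 4 libraries, and the library of the sorted naive cells is not stated. The values deposited are unnormalized UMI counts for each gene and hashtag in each barcode, which the authors made with Cell Ranger (6.1.2 in the matrix headers; another version in the study's methods) on mm10. The labels name a 3' kit. Hashtag positivity was set per library at the emptiest bin of log10 counts (step 0.1); barcodes with several hashtags (8.14% untreated, 7.47% RT) were removed, and doublets within a mouse were not called. HTODemux, the study's method (Seurat 5.3.0, quantile 0.99, margin 2), was an alternative. Cells were clustered with scanpy 1.11.5 (2000 variable genes, 20 components, 15 neighbours, Leiden resolution 0.6) and named by marker lists needing 3 markers.

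Counts were summed per mouse and fitted with edgeR 4.0.16 (TMM, filterByExpr, quasi-likelihood, two-sided) over all 20 mice, with Benjamini-Hochberg adjustment over all genes tested and calls at 0.05. DESeq2 1.42.0 and limma 3.58.1 were alternatives. CPM is a count relative to the TMM-scaled library size, as edgeR gives it; means are over 5 mice. The p-values measure the spread between mice of 1 library per treatment. Within clusters, at least 4 mice a group with 30 cells were needed. Named genes were all called genes, the 10 highest and 10 lowest values at 20 CPM or more, the leading member of each of 28 lists, 16 genes of the study and 5 per cluster; further genes were named after their values were seen. Members, lists and tests were chosen with earlier results of these data known. Gene positions are from GENCODE vM21 and promoters from RefSeq, where the 3 H4 genes shown were matched by older symbol. The fit and tests were tested on simulated data. Some genes are not reported here.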

Additional observations from a re-analysis of the deposited data

Results flagged for a closer look

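In 52 groups of 5 mice, 3 held a mouse far from the others by Dixon's test, which flags about 1 in 20 groups by chance. Hist1h4h stood at 17.5 CPM in RT mouse 4. The gamma delta T cell-like cluster held 2.78% of the cells of the same mouse, which had 144 cells. The median mitochondrial share was 2.04% in untreated mouse 3.

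The change with RT differed between mice with and without αPD-L1 for all 13 called genes and 2 of the study's genes (edgeR, adjusted p under 0.05). For the 13 this is no separate result, since the contrast includes the one by which they were chosen. Of all 12051 genes tested, 105 (0.871%) were called in it. As the log2 change with antibody minus that without, the values were 0.66 for Gm8797, 0.64 for AY036118, 0.53 for Hist1h4h, 0.48 for Lars2, 0.47 for Gm42418, 0.43 for Gna13, 0.43 for Hist1h4d, 0.42 for Pitpnm1 and 0.41 for Hist1h4c. They were -0.37 for Gm47882, -0.36 for Dynll1, -0.32 for Sarnp and -0.21 for Ddx5. For Isg15 the value was 3.23 and for Irf7 2.22.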

How the results depend on the processing

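Against 13 genes called between RT and untreated mice, the count was 8 with HTODemux, 21 without barcodes over 20000 UMIs, 34 with DESeq2, 44 with only the 10 mice and 34 without cycling cells; among settings added after seeing the data, DESeq2 on the 10 mice gave 76. HTODemux shared 7 of its 8 genes with the 13, DESeq2 and the fit without cycling cells shared all 13. Leaving out each mouse gave 7 to 27. The other settings (RLE factors, no filter on low counts, limma, no removal of barcodes by markers, under 5% mitochondrial UMIs, mice with under 300 cells left out, and, added after seeing the data, the low-UMI cluster or the gamma delta-like and Lyz2 clusters left out and limma on 10 mice) gave 9 to 14. The split of higher against lower calls was 4 to 4 with HTODemux and 20 to 24 with 10 mice, against 4 to 9.

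Against 105 genes whose changes differed with and without antibody, the count was 63 with HTODemux, 36 with limma and 66 without the mouse of under 300 cells; leaving out each mouse gave 19 (without RT mouse 2 or 3) to 239 (without RT + αPD-L1 mouse 1), and the count moved by over 1.5 times without untreated mice 1, 2, 3 or 5, RT mice 1 to 4, αPD-L1 mice 3 to 5 or RT + αPD-L1 mice 1, 2, 3 or 5. For the cluster shares the design was too small for 1 cluster alone to pass after adjustment, so that 0 calls under the alternatives says nothing of stability. Within clusters 122 calls became 74 with DESeq2. The causes were not tested. Of 299 values of the 13 genes under other settings, 0 changed sign and 51 lost the call; of 1127 values of the other named genes, 12 gained a call and 19 changed sign, none of them called. With 1 library per treatment, treatment and library cannot be told apart. RT mouse 4 had 144 cells, and low genes had few UMIs there. No paired analysis was possible because the mice carry no numbers that match between libraries.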

Other observations

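At an unadjusted p under 0.05 in edgeR, 579 genes were higher and 616 lower in RT than in untreated mice. Other genes called when the 10 mice were fitted alone were Lyst, which shapes cytotoxic granules (27.8 ± 1.62 CPM untreated and 35.4 ± 2.80 CPM in RT), the mitochondrial citrate carrier Slc25a1 (26.1 ± 1.39 and 21.0 ± 0.855 CPM) and Odc1 of polyamine synthesis (167.5 ± 5.45 and 138.5 ± 13.7 CPM); each had an adjusted p over 0.05 with all 20 mice.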
